A study of Mus musculus with 16 samples.

Results

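The genes described here are 10 that mark the pigment cell lineage: Tyr, Tyrp1, Dct, Slc45a2, Oca2, Pmel, Mlana, Gpr143, Mitf and Sox10. They were taken by symbol, and all 10 had a row among the 16094 genes measured and a mean above the minimum of 5 normalised counts used for testing, which 14672 genes passed. RNA was taken from 16 tumours of B16R2L, a melanoma cell line of the mouse, implanted in mice, in 4 groups of 4. Of the cells injected, one line expressed a short hairpin RNA without a target (shCtrl) and the other, shMdk, a hairpin directed at Mdk, which encodes midkine, a secreted growth factor. Each line carried 1 hairpin. From a tumour volume of 100 mm3, the mice bearing each line received anti-PD1 (clone RMP1-14, which blocks a checkpoint receptor of T cells, at 10 mg/kg per the labels) or an IgG2a control antibody, for which no dose is given, 2 times a week over 2 weeks. The 4 groups were thus shCtrl IgG2a, shCtrl anti-PD1, shMdk IgG2a and shMdk anti-PD1, and the series title names the response to PD1 therapy of tumours with less Mdk as its subject. The strain, sex and age of the mice are not given in the sources used here. Because each line carried a single hairpin, the loss of Mdk and any other difference between the lines cannot be told apart.

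Melanin is made inside melanosomes, organelles of pigment cells. Tyrosinase, the product of Tyr, starts the pathway by oxidising tyrosine, and the related enzymes encoded by Dct and Tyrp1 act on later intermediates of brown-black eumelanin. Pmel forms the fibrils on which melanin is laid down, Slc45a2 and Oca2 are membrane transport proteins that set the conditions for tyrosinase in the melanosome, Mlana is a small melanosomal membrane protein, and Gpr143 is a receptor in the melanosome membrane. Mitf is the transcription factor that drives most of these genes, and Sox10, a neural crest factor, acts on Mitf and on several of its targets. Products of Tyr, Tyrp1, Dct, Pmel and Mlana are known antigens for T cells in melanoma. Mouse B16 melanoma is a pigmented tumour, so these genes are read in it as markers of the tumour cells.

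Mitf binds E-boxes of the form CATGTG or CACGTG, and the 7-letter form TCATGTG is known as the M-box. Windows of 250 bases before the transcription start from RefSeq on the build GRCm38.p6 were at hand for 5 of the 10 genes (Tyr, Tyrp1, Dct, Oca2 and Mitf, the last with 3 starts). They were searched on both strands for these 3 strings, of which CATGTG is contained in TCATGTG. The windows of the 3 synthesis enzymes and of Oca2 are printed because they hold such a match. Each is written 5′ to 3′ on the gene's strand, and capitals mark TCATGTG, its reverse complement CACATGA or, in Oca2, CACATG, the reverse complement of CATGTG.

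Tyr, chr7:87493513-87493762, minus strand: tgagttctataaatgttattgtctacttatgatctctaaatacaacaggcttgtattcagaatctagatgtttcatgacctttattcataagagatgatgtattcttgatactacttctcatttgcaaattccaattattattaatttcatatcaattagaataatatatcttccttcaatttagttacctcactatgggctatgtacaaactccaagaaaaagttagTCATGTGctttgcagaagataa
Tyrp1, chr4:80833963-80834212, plus strand: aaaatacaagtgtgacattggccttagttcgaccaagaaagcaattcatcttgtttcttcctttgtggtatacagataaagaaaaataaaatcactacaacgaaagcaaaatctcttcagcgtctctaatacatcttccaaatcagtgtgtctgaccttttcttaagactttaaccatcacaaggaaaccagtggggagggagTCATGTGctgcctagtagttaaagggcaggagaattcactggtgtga
Dct, chr14:118052247-118052496, minus strand: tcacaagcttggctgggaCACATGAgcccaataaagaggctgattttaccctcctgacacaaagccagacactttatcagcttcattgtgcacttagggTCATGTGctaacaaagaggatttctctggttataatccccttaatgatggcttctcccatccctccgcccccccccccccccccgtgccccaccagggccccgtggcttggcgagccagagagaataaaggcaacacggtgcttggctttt
Oca2, chr7:56239509-56239758, plus strand: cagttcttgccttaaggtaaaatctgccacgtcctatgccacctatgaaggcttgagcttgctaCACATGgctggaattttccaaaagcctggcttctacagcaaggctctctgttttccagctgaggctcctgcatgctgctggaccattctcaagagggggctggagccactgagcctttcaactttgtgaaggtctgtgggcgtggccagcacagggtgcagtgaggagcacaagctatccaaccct

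TCATGTG lay 22 to 16 bases before the start of Tyr and 47 to 41 bases before that of Tyrp1. GENCODE M21 starts Tyrp1 further upstream, at 80834123, so this match lies inside the gene as GENCODE annotates it, and distances here are from the RefSeq start. Dct held it at 151 to 145 bases and, on the other strand, at 232 to 226 bases before the start. Oca2 held only the shorter CATGTG, on the other strand, 186 to 181 bases before the start. The 3 Mitf windows held none of the 3 strings, and none of the 7 windows held CACGTG. Of 32851 windows of the same length over all genes, 3.25% held TCATGTG, 12.3% held CATGTG and 6.02% held CACGTG. These matches are descriptions of the letters, and binding was not measured.

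Reads were counted at the 3′ ends of transcripts, and the values are normalised counts, that is, reads divided by a size factor for each tumour. Recovered reads ran from 5686405 to 8886334 per tumour, with 15508 to 16014 genes above 0. Across genes, values in 5 tumours leaned towards transcripts with GC-rich 3′ ends: shCtrl IgG2a tumours 1 and 2, shMdk IgG2a tumours 3 and 4 and shMdk anti-PD1 tumour 1. The slope was 0.0864 to 0.173 log2 units per 10% of GC in these 5 and -0.105 to -0.00634 in the other 11, and the 5 are called the tumours with a positive GC slope here. Gm42418, a predicted gene over ribosomal RNA sequence, held 4.47% and 3.17% of the reads of 2 tumours (shCtrl anti-PD1 tumour 2, shMdk IgG2a tumour 1) and 0.880% to 1.56% elsewhere. Tumour numbers follow the order of the samples and pair nothing across groups. Mdk itself had 601 to 1161 normalised counts in the 8 shCtrl tumours and 96.5 to 323 in the 8 shMdk tumours. Its log2 fold change was -2.16 ± 0.36 (SE) under IgG2a and -2.17 ± 0.36 under anti-PD1 (limma, adjusted p = 0.00428 and 0.00166). Exact permutation tests gave p = 0.0286 in both arms, the smallest that 70 arrangements of 4 against 4 tumours allow.

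The tumours were strongly melanocytic in every group. Together the 10 genes took 1.52% to 2.44% of all reads of a tumour, and Dct alone was between rank 2 and rank 8 of all genes in each of the 16 tumours. Dct made up 45.8% to 68.5% of the 10-gene sum. By group mean, the sum took 2.20% ± 0.161 of reads in shCtrl IgG2a, 2.09% ± 0.363 in shCtrl anti-PD1, 1.83% ± 0.0994 in shMdk IgG2a and 1.84% ± 0.226 in shMdk anti-PD1 tumours (SD, n = 4). Under IgG2a the lowest shCtrl tumour had 2.02% and the highest shMdk tumour 1.96%, so the sums stood apart by a narrow margin. Under anti-PD1 they overlapped (1.65% to 2.44% against 1.52% to 2.03%). Of the 10 genes taken singly, 0 had shCtrl and shMdk groups without overlap under IgG2a, and 0 under anti-PD1. The share of all genes without overlap in these comparisons is not given here, so these counts have no background. The sum follows Dct more than any other gene and was given no test. In bulk tumour RNA, fewer pigment cells and less RNA of these genes per cell cannot be told apart.

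Averaged over the 16 tumours, the order of read levels was Dct, Pmel, Tyrp1, Mitf, Mlana, Slc45a2, Sox10, Tyr, Gpr143 and Oca2. The kit reads a transcript at its 3′ end, so these values were not scaled by length, but how well a 3′ end is captured can differ between genes. Neighbours kept this order in all 16 tumours for Dct over Pmel, Pmel over Tyrp1, Sox10 over Tyr and Tyr over Gpr143. Tyrp1 was above Mitf in 13 tumours, Mitf above Mlana in 14 and Slc45a2 above Sox10 in 14. Mlana and Slc45a2 kept their order in only 8 of 16 tumours, and Gpr143 and Oca2 in 10 of 16, so neither pair can be ranked. Mean levels ran from 83952 normalised counts for Dct to 131 for Oca2, which together with Gpr143 (mean 150) was far below the rest.

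**Figure D1:**
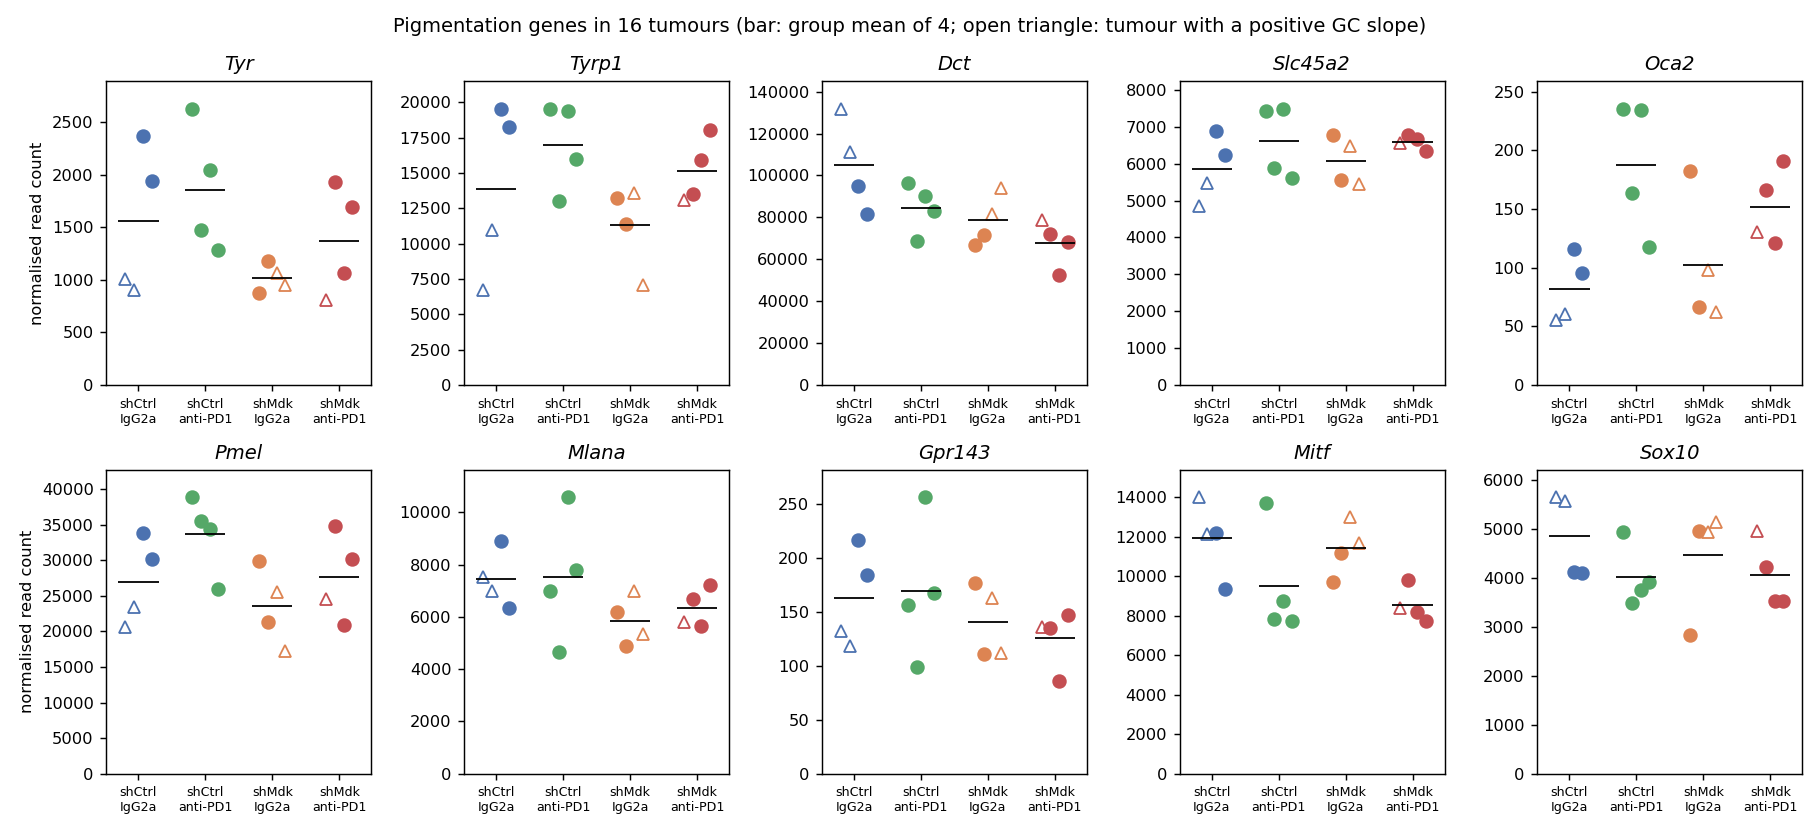
Normalised read counts (vertical axes, starting at 0, one panel per gene) of the 10 pigmentation genes in each of the 16 tumours by group; bars are means of 4 tumours and open triangles are the 5 tumours with a positive GC slope. The triangles lie high for Dct and Sox10 and low for Tyr, Tyrp1 and Oca2, and the Oca2 points of shCtrl anti-PD1 tumours (118 to 235) lie above those of shCtrl IgG2a tumours (55.2 to 116).

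None of the 10 genes passed the test in any of 7 comparisons (limma, Benjamini-Hochberg adjusted p under 0.05 over 14672 genes). Of all genes tested, 1.74% passed for shMdk against shCtrl under IgG2a, 5.93% under anti-PD1 and 8.4% averaged over the antibodies. For anti-PD1 against IgG2a, 0.0% passed in shCtrl tumours, 0.0341% in shMdk tumours and 0.0477% averaged over the lines, and for the change of the anti-PD1 effect with the line 0.0% passed. The 0 calls in shCtrl tumours stand beside 556 genes at an unadjusted p under 0.05, 0 calls by edgeR and 7 by DESeq2, and the 0 calls for the difference beside 506 genes, 0 and 0. At an unadjusted p under 0.05 stood 1 of the 10 genes for anti-PD1 in shCtrl (Oca2) and 1 in shMdk tumours (Mitf), against 3.79% and 12.4% of all genes. The same count was 0 for the knockdown under each antibody (9.69% and 17.8% of all genes), 2 for the knockdown averaged over the antibodies (Dct and Tyr, against 21.0%) and 2 for anti-PD1 averaged over the lines (Mitf and Oca2, against 16.8%), and 0 for the change of the anti-PD1 effect with the line (3.45%). Comparisons that use the same group share those tumours: both knockdown comparisons share samples with both anti-PD1 comparisons.

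With Mdk knocked down, 8 of the 10 estimates were below 0 under IgG2a, 8 of 10 under anti-PD1 and 9 of 10 averaged, where 51.6%, 52.2% and 52.6% of all genes were below 0. The median log2 fold change of the 10 genes was -0.20, -0.23 and -0.22, beside -0.01, -0.02 and -0.02 over all genes tested. The largest estimates averaged over the antibodies were those of Tyr (-0.48 ± 0.22) and Dct (-0.36 ± 0.15). Under anti-PD1, 6 of 10 estimates were above 0 and 4 below 0 in each line and averaged, where 48.7% (shCtrl), 46.8% (shMdk) and 48.1% (averaged) of all genes were below 0. Their median was 0.10 in shCtrl and 0.12 in shMdk tumours, beside 0.01 and 0.03 over all genes, and Oca2 and Mitf lay at the ends. The values behind these estimates follow by role.

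**Figure D2:**
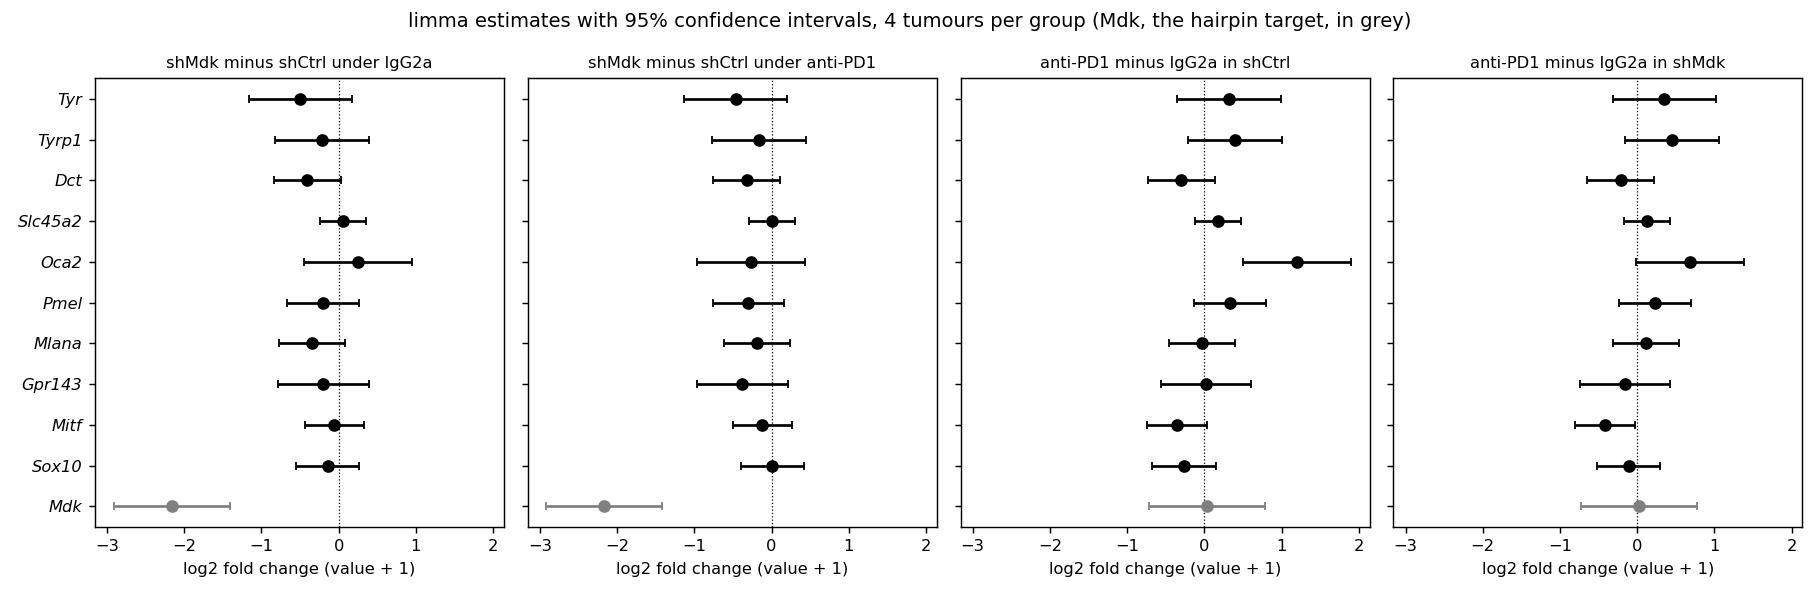
Log2 fold changes of normalised count + 1 (horizontal axes) with 95% confidence intervals from limma for each pigmentation gene and for Mdk (grey), in the 4 comparisons of 2 groups with 4 tumours each. Most intervals of the 10 genes include 0, those of Oca2 in shCtrl (0.50 to 1.90) and Mitf in shMdk tumours (-0.80 to -0.03) under anti-PD1 do not, and Mdk lies near -2.16 in both knockdown panels.

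Among the synthesis enzymes, Tyr (ENSMUSG00000004651.6, chromosome 7, 87424771 to 87493512, minus strand, GRCm38) encodes the rate-limiting tyrosinase. It read 1004, 908, 2366 and 1941 normalised counts in shCtrl IgG2a tumours 1 to 4, and 2627, 1476, 2043 and 1287 in shCtrl tumours given anti-PD1. In shMdk tumours it read 876, 1181, 1069 and 956 under IgG2a, and 810, 1926, 1063 and 1694 under anti-PD1. The shMdk IgG2a tumours were all low and close together, around the 2 lower shCtrl IgG2a tumours (908 and 1004) and below the 2 higher ones, so the groups overlapped. Both lower shCtrl tumours had a positive GC slope, as had shMdk IgG2a tumours 3 and 4 (1069 and 956). Means were 1555 ± 714, 1858 ± 605, 1021 ± 134 and 1373 ± 523 (SD, n = 4), in the order above. The knockdown estimates were -0.50 ± 0.32 under IgG2a and -0.46 ± 0.32 under anti-PD1 on the log2 scale. Averaged, the estimate was -0.48 ± 0.22, with an interval from -0.95 to -0.01 (limma, adjusted p = 0.228, and exact permutation within antibodies, unadjusted p = 0.0755). Those for anti-PD1 were 0.32 ± 0.32 (shCtrl) and 0.35 ± 0.32 (shMdk), with intervals from -0.35 to 0.99 and from -0.32 to 1.02. Without the 5 tumours with a positive GC slope, the anti-PD1 value in shCtrl turned to -0.26. The knockdown value under IgG2a was then -1.07, from 2 tumours in each group. Over 26 alternatives that knockdown value ran from -1.07 to -0.25 and passed in 0 of them. The spread of Tyr within groups was wide: its residual SD of 0.51 log2 units was above that of 93.9% of the 1576 genes within 2-fold of its level.

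Tyrp1 (ENSMUSG00000005994.14, chromosome 4, 80834123 to 80851719, plus strand) encodes tyrosinase-related protein 1, an oxidase of eumelanin synthesis. Its normalised counts were 6747, 10996, 19548 and 18221 in shCtrl tumours given IgG2a and 19539, 13047, 19414 and 15969 in shCtrl tumours given anti-PD1. They were 13227, 11360, 13570 and 7097 in shMdk IgG2a and 13118, 13480, 15883 and 18036 in shMdk tumours given anti-PD1. The low values were those of shCtrl IgG2a tumour 1 and shMdk IgG2a tumour 4, both with a positive GC slope, and all groups overlapped their neighbours. Means were 13878 ± 6060, 16992 ± 3107, 11314 ± 2974 and 15129 ± 2294. Estimates were -0.22 ± 0.29 and -0.16 ± 0.29 for the knockdown and 0.40 ± 0.29 and 0.45 ± 0.29 for anti-PD1, none past the threshold (limma, adjusted p from 0.505 to 0.924). Averaged over the lines, anti-PD1 gave 0.42 ± 0.20 with an interval from -0.01 to 0.85. Over 25 alternatives this averaged value of Tyrp1 ran from 0.09 to 0.53 and passed in 0 of them. In shCtrl tumours the anti-PD1 value turned to -0.17 without the 5 tumours with a positive GC slope, of which 2 are in shCtrl IgG2a.

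Dct (ENSMUSG00000022129.4, chromosome 14, 118012790 to 118052244, minus strand) encodes dopachrome tautomerase, also known as tyrosinase-related protein 2. It read 131868, 111122, 94860 and 81565 normalised counts in shCtrl tumours given IgG2a, and 96320, 68691, 90157 and 82955 in shCtrl tumours given anti-PD1. In shMdk tumours it read 66878, 71548, 81382 and 94252 under IgG2a, and 78929, 72106, 52279 and 68315 under anti-PD1. The highest tumours were the first 2 of shCtrl IgG2a, the lowest was a shMdk anti-PD1 tumour, and the groups overlapped in each pairwise comparison. Means were 104854 ± 21689, 84531 ± 11889, 78515 ± 12109 and 67907 ± 11306. The knockdown estimates were -0.41 ± 0.21 under IgG2a and -0.32 ± 0.21 under anti-PD1, with intervals from -0.84 to 0.03 and from -0.76 to 0.12. Averaged, the estimate was -0.36 ± 0.15, or 0.777-fold, with an interval from -0.67 to -0.06 (limma, adjusted p = 0.154, and exact permutation within antibodies, unadjusted p = 0.00898). Over 25 alternative settings, this averaged value of Dct stayed between -0.45 and -0.30, with adjusted p from 0.0128 to 0.263. It passed in 2 of them, with DESeq2 (-0.37, adjusted p = 0.0390) and with the GC slope of the tumour as a covariate (-0.45, adjusted p = 0.0128). Under anti-PD1, Dct had -0.30 ± 0.21 in shCtrl and -0.21 ± 0.21 in shMdk tumours, the opposite sign to Tyr and Tyrp1 in the main fit. In shCtrl tumours this contrast was absent in the fit without the 5 tumours with a positive GC slope, of which 2 are in shCtrl IgG2a. Without them Tyr (-0.26) and Tyrp1 (-0.17) were also below 0 there, and Dct ran from -0.41 to -0.07 over 26 alternatives. In shMdk tumours the signs held over 26 alternatives, with Tyr from 0.14 to 0.58, Tyrp1 from 0.22 to 0.55 and Dct from -0.29 to -0.09.

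Of the transporters, Slc45a2 (ENSMUSG00000022243.10, chromosome 15, 11000721 to 11029233, plus strand) was the steadiest of the 10 genes. Its product is a proton-coupled transporter that raises melanosome pH. Normalised counts were 4849, 5467, 6882 and 6225 in shCtrl tumours given IgG2a and 7435, 5895, 7490 and 5607 in shCtrl tumours given anti-PD1. They were 6779, 5562, 6472 and 5453 in shMdk IgG2a and 6548, 6781, 6668 and 6348 in shMdk tumours given anti-PD1. The highest tumour had 1.54 times the lowest, and its residual SD of 0.18 log2 units was above that of only 22.3% of the 314 genes of like level. Averaged over the antibodies, the knockdown gave 0.03 ± 0.10, with an interval from -0.18 to 0.24. Averaged over the lines, anti-PD1 gave 0.15 ± 0.10 with an interval from -0.06 to 0.36.

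Oca2 (ENSMUSG00000030450.11, chromosome 7, 56239760 to 56536518, plus strand), whose product is a melanosomal anion channel, showed the largest anti-PD1 estimate of the 10 genes. In shCtrl IgG2a tumours it read 55.2, 60.7, 116.0 and 95.1 normalised counts, and in shCtrl anti-PD1 tumours 235, 164, 234 and 118. In shMdk tumours it read 182, 66.4, 97.6 and 62.0 under IgG2a and 130, 166, 121 and 190 under anti-PD1. In shCtrl tumours the antibody groups did not overlap, though the closest tumours lay at 116.0 and 118, whereas in shMdk tumours 1 IgG2a tumour lay among the anti-PD1 tumours. Of all genes tested, 0.981% were higher without overlap in the shCtrl comparison and 1.13% lower. Means were 81.7 ± 28.9 under IgG2a and 188 ± 57.5 under anti-PD1 in shCtrl tumours, and 102 ± 55.9 and 152 ± 32.2 in shMdk tumours (SD, n = 4).

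The log2 fold change of Oca2 under anti-PD1 was 1.20 ± 0.33 in shCtrl tumours, with an interval from 0.50 to 1.90 (limma, adjusted p = 0.798, and exact permutation, unadjusted p = 0.0286). In shMdk tumours it was 0.69 ± 0.33, with an interval from -0.01 to 1.39 (limma, adjusted p = 0.406). The difference between the lines, -0.52 ± 0.47, did not pass (limma, adjusted p = 0.9998). Averaged over the lines the estimate was 0.94 ± 0.23 (limma, adjusted p = 0.172, and exact permutation within lines, unadjusted p = 0.00490). Over 25 alternatives this averaged value of Oca2 ran from 0.64 to 1.13, with adjusted p from 0.0318 to 0.997. It passed with DESeq2 (0.89, adjusted p = 0.0318) and without the 2 tumours with over 2% of reads from Gm42418 (1.13, adjusted p = 0.0451), and was 0.64 (adjusted p = 0.997) without the 5 tumours with a positive GC slope. In those 5 tumours Oca2 read 55.2 to 130, in the other 11 it read 66.4 to 235, and 4 of the 5 were given IgG2a. The part of this in the anti-PD1 estimate was not tested beyond these alternatives.

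Pmel (ENSMUSG00000025359.10, chromosome 10, 128704195 to 128720238, plus strand) encodes the amyloid fibril protein of the melanosome. Its normalised counts were 20659, 23431, 33807 and 30135 in shCtrl tumours given IgG2a and 38857, 35560, 34473 and 25940 in shCtrl tumours given anti-PD1. They were 29875, 21310, 25620 and 17273 in shMdk IgG2a and 24635, 34778, 20844 and 30130 in shMdk tumours given anti-PD1. Of the 4 highest values, 3 came from shCtrl anti-PD1 tumours, and no pair of groups stood apart. Averaged over the lines, anti-PD1 gave 0.28 ± 0.16 with an interval from -0.05 to 0.61. Over 25 alternatives this value of Pmel ran from 0.11 to 0.35 and passed in 0 of them. Averaged over the antibodies, the knockdown gave -0.25 ± 0.16 with an interval from -0.58 to 0.08.

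Mlana (ENSMUSG00000024806.4, chromosome 19, 29697824 to 29708634, plus strand) encodes the melanosomal protein also known as MART-1. It read 7522, 6995, 8903 and 6322 normalised counts in shCtrl tumours given IgG2a, and 7005, 4658, 10570 and 7795 in shCtrl tumours given anti-PD1. In shMdk tumours it read 6195, 4880, 7004 and 5340 under IgG2a, and 5799, 6678, 5632 and 7204 under anti-PD1. Both the highest and the lowest of the 16 values came from shCtrl anti-PD1 tumours, and the groups overlapped. The knockdown estimates were -0.35 ± 0.20 under IgG2a and -0.19 ± 0.20 under anti-PD1, and -0.27 ± 0.14 averaged, with an interval from -0.57 to 0.03. Anti-PD1 gave 0.04 ± 0.14 averaged over the lines, with an interval from -0.26 to 0.34.

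Gpr143 (ENSMUSG00000025333.10, chromosome X, 152781921 to 152808646, plus strand), the gene of ocular albinism type 1, encodes the melanosomal receptor. It was low, with 133, 118, 217 and 185 normalised counts in shCtrl IgG2a and 156, 99.1, 257 and 168 in shCtrl tumours given anti-PD1. The shMdk tumours had 177, 111, 163 and 112 under IgG2a and 136, 135, 86.4 and 147 under anti-PD1. All groups overlapped. The averaged estimates were -0.29 ± 0.20 for the knockdown (interval -0.70 to 0.13) and -0.07 ± 0.20 for anti-PD1 (interval -0.48 to 0.35).

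Of the regulators, Mitf (ENSMUSG00000035158.15, chromosome 6, 97807052 to 98021349, plus strand) has 8 annotated transcripts from several promoters, which reads at a shared 3′ end do not separate. Its normalised counts were 14001, 12124, 12221 and 9353 in shCtrl tumours given IgG2a and 13696, 7827, 8762 and 7751 in shCtrl tumours given anti-PD1. They were 9726, 11201, 13009 and 11714 in shMdk IgG2a and 8404, 9839, 8169 and 7725 in shMdk tumours given anti-PD1. In both lines the anti-PD1 tumours were mostly the lower ones, with 1 exception in shCtrl (13696) and 1 pair out of order in shMdk tumours (9839 over 9726). The shCtrl means were 11925 ± 1919 and 9509 ± 2829, and the shMdk means 11413 ± 1358 and 8534 ± 914, under IgG2a and anti-PD1. The anti-PD1 estimates were -0.35 ± 0.18 and -0.42 ± 0.18. Averaged, the estimate was -0.39 ± 0.13, or 0.766-fold, with an interval from -0.66 to -0.11 (limma, adjusted p = 0.238, and exact permutation within lines, unadjusted p = 0.0114). Over 25 alternatives this averaged value of Mitf stayed between -0.48 and -0.25 and passed in 0 of them. The knockdown gave -0.06 ± 0.18 and -0.12 ± 0.18, and -0.09 ± 0.13 averaged, with an interval from -0.36 to 0.18.

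Sox10 (ENSMUSG00000033006.10, chromosome 15, 79154908 to 79165240, minus strand) read 5637, 5563, 4116 and 4098 normalised counts in shCtrl tumours given IgG2a, and 4929, 3478, 3754 and 3908 in shCtrl tumours given anti-PD1. In shMdk tumours it read 2823, 4954, 4936 and 5137 under IgG2a, and 4954, 4224, 3524 and 3533 under anti-PD1. The lowest value was that of shMdk IgG2a tumour 1, in which Gm42418 took 3.17% of reads, and the 5 tumours with a positive GC slope all read 4936 or more, against 2823 to 4954 in the others. The averaged estimates were -0.07 ± 0.14 for the knockdown (interval -0.36 to 0.23) and -0.19 ± 0.14 for anti-PD1 (interval -0.48 to 0.10). For all 10 genes the change of the anti-PD1 effect with the line lay between -0.52 and 0.16 on the log2 scale.

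The balance between the enzymes differed from tumour to tumour. Within a tumour the ratio of Dct to Tyrp1 reads was 19.5, 10.1, 4.85 and 4.48 in shCtrl tumours given IgG2a, 4.93, 5.26, 4.64 and 5.19 in shCtrl tumours given anti-PD1, 5.06, 6.30, 6.00 and 13.3 in shMdk tumours given IgG2a and 6.02, 5.35, 3.29 and 3.79 in shMdk tumours given anti-PD1. The 3 ratios above 10 came from tumours with a positive GC slope. In the 5 such tumours the ratio ran from 6.00 to 19.5 (median 10.1), and in the other 11 from 3.29 to 6.30 (median 4.93). The ratio of Dct to Tyr ran from 76.1 to 131 in the 5 and from 36.7 to 76.4 in the 11. The 2 sets are samples grouped by a technical measure and not groups of the study. Both hold tumours of each line, but they are uneven over the antibodies. Of the 11, 2 were shCtrl IgG2a, 4 shCtrl anti-PD1, 2 shMdk IgG2a and 3 shMdk anti-PD1 tumours. The 5 were thus mostly given IgG2a, and none was a shCtrl anti-PD1 tumour.

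Among the 10 genes, reading low or high in the 5 tumours did not follow the GC content of the 3′ end in every case. The last 500 bases of the transcript hold 25.2% GC in Tyr, 38.0% in Oca2, 38.4% in Tyrp1, 42.8% in Dct and 54.0% in Sox10. Tyr, Oca2 and Tyrp1, with low GC, tended to read low in the 5 tumours (810 to 1069, 55.2 to 130 and 6747 to 13570 normalised counts, against 876 to 2627, 66.4 to 235 and 11360 to 19548 in the other 11). Dct and Sox10 tended to read high (78929 to 131868 and 4936 to 5637, against 52279 to 96320 and 2823 to 4954). Pmel, with 51.2% GC, read 17273 to 25620 in the 5 and 20844 to 38857 in the 11, thus low in the tumours that leaned towards GC-rich ends. Mitf, with 36.6%, read 8404 to 14001 and 7725 to 13696. Over the 16 tumours, group-centred log2 values were also correlated with the group-centred GC slope, a relation chosen after the slopes were seen. Among the 10 relations, Benjamini-Hochberg adjusted over these 10, Pearson r had an adjusted p under 0.05 for 5 genes. Sox10 had r = 0.78 (permutation p = 0.00203, adjusted 0.0203) and rho = 0.83 (permutation p = 0.000880, adjusted 0.00880). Dct had r = 0.77 (permutation p = 0.00491, adjusted 0.0245) and rho = 0.80 (permutation p = 0.00308, adjusted 0.0154). Tyrp1 had r = -0.79 (permutation p = 0.0118, adjusted 0.0394) and rho = -0.71 (permutation p = 0.0400, adjusted 0.0799). For Pmel and Oca2 r was -0.67 and -0.68 (permutation p = 0.0248 and 0.0228, both adjusted to 0.0496) and rho -0.64 and -0.66 (permutation p = 0.0304 and 0.0207, adjusted 0.0761 and 0.0691). Without the 2 tumours farthest from the median slope, r was 0.76 for Sox10, 0.66 for Dct, -0.66 for Tyrp1, -0.52 for Pmel and -0.57 for Oca2. Within the 11 tumours without a positive slope it was 0.67 for Sox10 and -0.52 for Oca2 but 0.18 for Dct and -0.19 for Tyrp1, so for these enzymes the relation rests on the 5 tumours. Such values were not rare: 9.31% of all genes tested had a lower r than Tyrp1, and 92.5% and 92.9% a lower r than Dct and Sox10. What the slope comes from was not tested.

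**Figure D3:**
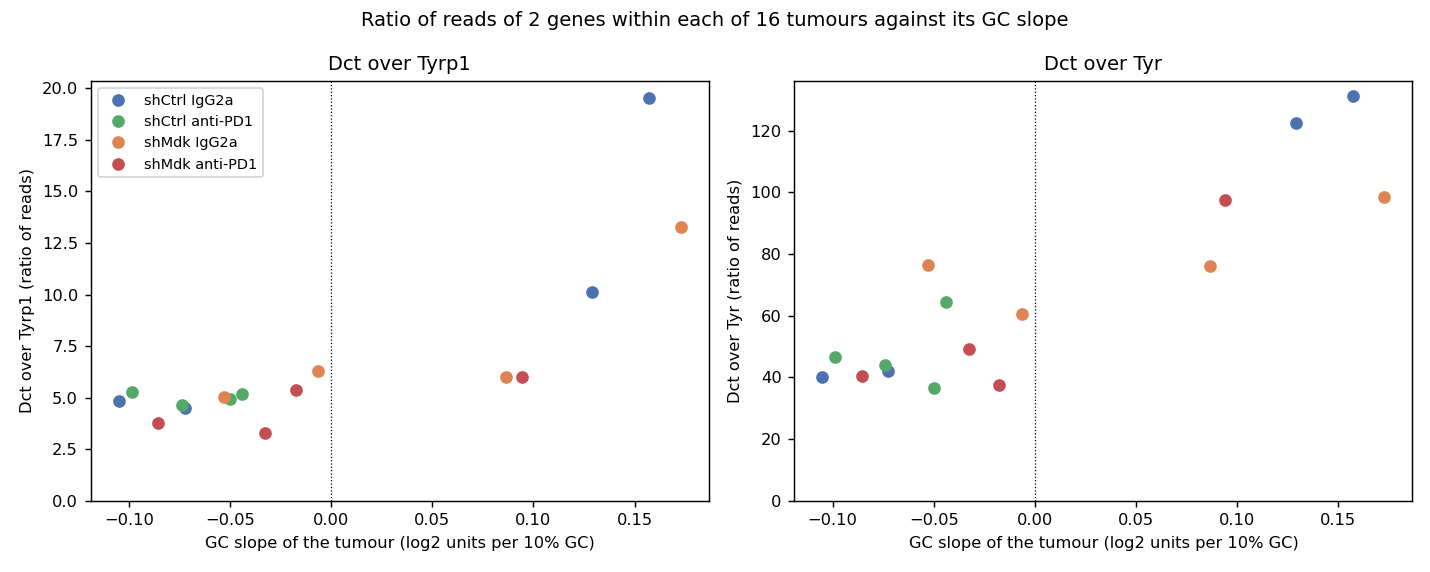
Ratio of reads of Dct to Tyrp1 (left) and of Dct to Tyr (right) in each of the 16 tumours (vertical axes, starting at 0) against the GC slope of that tumour in log2 units per 10% of GC (horizontal axes), coloured by group. The 5 tumours right of the dotted line hold the ratios from 6.00 to 19.5 and from 76.1 to 131, and the 11 tumours left of it lie at 6.30 and 76.4 or less.

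Some pairs of the 10 genes varied together within groups. Group means were subtracted from the log2 values, and Pearson correlations were computed over the 16 tumours for all 45 pairs, with permutation of tumours within groups and Benjamini-Hochberg adjustment over the 45. In 8 pairs r was positive with an adjusted p under 0.05, and in 0 pairs it was negative. Pmel and Oca2 had r = 0.88 (permutation p = 0.000210, adjusted 0.00945) and rho = 0.87 (permutation p = 0.000140, adjusted 0.00630). Slc45a2 and Oca2 had r = 0.85 (permutation p = 0.000440, adjusted 0.00990) and rho = 0.87 (permutation p = 0.000480, adjusted 0.0108). Dct and Sox10, the enzyme and the factor, had r = 0.75 (permutation p = 0.00299, adjusted 0.0277) and rho = 0.83 (permutation p = 0.00215, adjusted 0.0314). The other 5 pairs were Mlana with Gpr143 (r = 0.82), Tyrp1 with Slc45a2 (0.79), Pmel with Slc45a2 (0.74), Oca2 with Gpr143 (0.68) and Mitf with Sox10 (0.66). Between the enzymes, r was 0.62 for Tyr and Tyrp1 but -0.54 for Tyrp1 and Dct and -0.17 for Tyr and Dct (adjusted permutation p = 0.105, 0.182 and 0.715). Sox10 and Oca2 had the lowest value, r = -0.62 (permutation p = 0.0459, adjusted 0.109; rho = -0.47, permutation p = 0.111, adjusted 0.238).

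These relations depended in part on the 5 tumours with a positive GC slope. Among the other 11 tumours, r was 0.82 for Pmel and Oca2, 0.81 for Slc45a2 and Oca2, 0.65 for Tyrp1 and Slc45a2, 0.51 for Dct and Sox10 and 0.94 for Mlana and Gpr143. The sign turned for Dct with Tyr (0.85) and Tyrp1 (0.47), while Sox10 and Oca2 stayed negative (-0.43). In these 11 tumours 0 of 45 pairs had an adjusted p under 0.05, where 576 arrangements within groups give a smallest p of 0.00174, or 0.0781 after adjustment if 1 pair alone reached it. With the 2 tumours farthest from the median of the first gene left out, r was 0.88 for Pmel and Oca2, 0.82 for Slc45a2 and Oca2 and 0.75 for Dct and Sox10. Leaving out single tumours gave 1 to 13 pairs past the threshold.

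**Figure D4:**
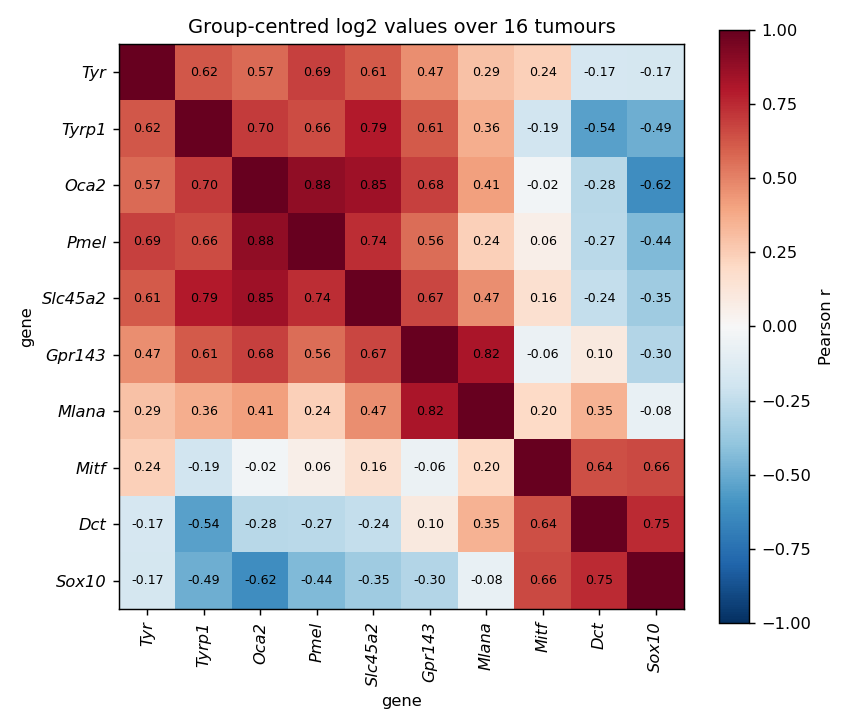
Pearson r (colour and printed value, from -1 to 1) between the group-centred log2 values of each pair of the 10 genes over the 16 tumours, with the same genes on both axes. Tyr, Tyrp1, Oca2, Pmel, Slc45a2 and Gpr143 form a block of positive values, among them 0.88 for Pmel and Oca2, and Mitf, Dct and Sox10 a second one from 0.64 to 0.75.

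RNA of leukocyte markers differed between the lines in the same tumours. The summed level of 14 leukocyte markers, among them Ptprc (CD45), was 295 to 798 normalised counts in shCtrl IgG2a and 342 to 1101 in shCtrl anti-PD1 tumours. It was 1408 to 3268 in shMdk IgG2a and 2725 to 5495 in shMdk tumours given anti-PD1. At an adjusted p under 0.05 (limma), 7 of the 14 were higher in shMdk tumours under IgG2a, 13 under anti-PD1 and 14 averaged over the antibodies. Of all genes tested, 1.63%, 4.93% and 6.23% were higher in these comparisons. The 10-gene sum ran from 158139 to 192475 normalised counts in shCtrl IgG2a and from 132174 to 153324 in shMdk tumours given IgG2a. Under anti-PD1 it ran from 140894 to 190800 in shCtrl and from 114270 to 150113 in shMdk tumours. None of the 10 genes passed for the knockdown, and the part of the leukocyte RNA in their estimates was not tested. Of 5 fibroblast markers measured, the sum ran from 413 to 2371 in the first 3 groups and from 1488 to 13211 in shMdk tumours given anti-PD1. At the same threshold, 3 of these 5 were higher in shMdk than in shCtrl tumours under anti-PD1, 0 under IgG2a and 0 averaged over the antibodies. The sum of 5 endothelial markers ran from 327 to 807 in the first 3 groups and from 584 to 1394 in shMdk tumours given anti-PD1. Of these 5 markers, 3 were higher in shMdk than in shCtrl tumours under anti-PD1, 0 under IgG2a and 2 averaged over the antibodies. The part of fibroblast and endothelial RNA in the pigmentation values was not tested. The sum of 2 muscle markers was 303 to 713, and the 6 keratinocyte markers were not analysed here.

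**Figure D5:**
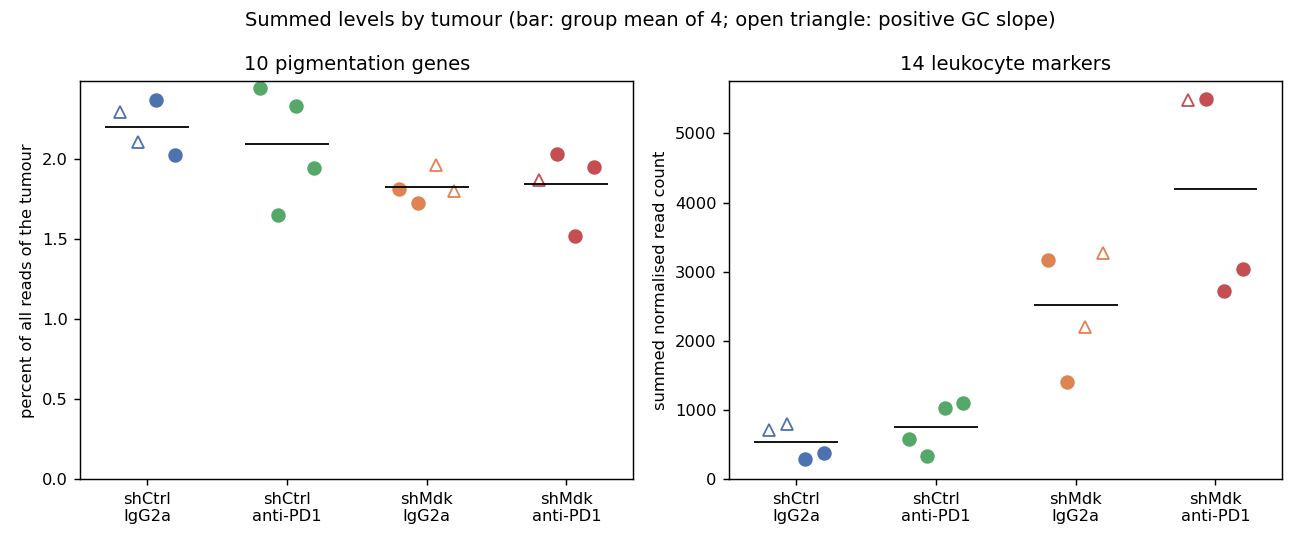
Summed level of the 10 pigmentation genes in percent of all reads (left) and of 14 leukocyte markers in normalised counts (right), each axis starting at 0, by tumour and group; bars are means of 4 tumours and open triangles the 5 tumours with a positive GC slope. The pigmentation sum spans 1.52% to 2.44% and the leukocyte sum 295 to 5495, with all shMdk tumours above all shCtrl tumours on the right.

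The machinery around pigment synthesis was described with 4 lists. Of all genes tested, 1.63% were higher and 0.109% lower in shMdk tumours under IgG2a, 4.93% and 0.995% under anti-PD1, and 6.23% and 2.17% averaged over the antibodies. Of 28 genes of melanosome biogenesis and transport, 0 passed in the pairwise comparisons and in the difference between the lines, and averaged over the antibodies 1 was higher in shMdk tumours and 0 lower. That gene was Mfsd12, a melanosomal transporter needed for red pheomelanin, at 92.5 ± 18.0 and 140 ± 41.9 normalised counts under IgG2a and 86.9 ± 18.5 and 152 ± 42.1 under anti-PD1 in shCtrl and shMdk tumours. Its averaged log2 fold change was 0.67 ± 0.18 (limma, adjusted p = 0.0235), and it failed in 3 of the 16 fits without a tumour, with adjusted p up to 0.0568. These were the fits without shCtrl anti-PD1 tumour 4, shMdk anti-PD1 tumour 1 and shMdk anti-PD1 tumour 2. The median of the list was -0.01 in that comparison, beside -0.02 over all genes. Rab38, a small GTPase that carries Tyr and Tyrp1 proteins to the melanosome, spanned 357 to 3430 normalised counts among shCtrl IgG2a and 254 to 1968 among shMdk IgG2a tumours, and its anti-PD1 estimate of 1.05 ± 0.47 averaged over the lines did not pass (limma, adjusted p = 0.289).

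Of 14 upstream signalling and lineage factors tested, 1 was lower in shMdk tumours under IgG2a, 0 passed under anti-PD1 and 1 was lower averaged over the antibodies. The gene was Sox5, a factor that can act against Sox10 at the Dct and Mitf promoters. It read 346 ± 13.8 in shCtrl and 203 ± 59.9 in shMdk tumours under IgG2a, and 314 ± 58.3 and 200 ± 41.3 under anti-PD1. Averaged, Sox5 fell by 0.73 ± 0.14 on the log2 scale (limma, adjusted p = 0.00238) and passed in all 16 fits that left out a tumour. Under IgG2a alone it was -0.81 ± 0.20 (limma, adjusted p = 0.0452) and was lost in 13 of the 16 fits, with adjusted p up to 0.158. Mc1r, the melanocortin receptor that raises Mitf through cyclic AMP, had means from 1905 to 1976 in the 4 groups. Kit, the receptor of stem cell factor, was low, at 28.4 ± 18.4, 69.5 ± 29.7, 30.4 ± 23.5 and 26.1 ± 10.2.

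Of 17 other target genes of Mitf tested, 0 passed under IgG2a, 2 were higher in shMdk tumours under anti-PD1 and 3 averaged over the antibodies, with 0 lower. Acp5, an acid phosphatase gene also expressed by macrophages and osteoclasts, was at 43.7 ± 7.84 and 106 ± 44.8 under IgG2a and 41.5 ± 10.5 and 126 ± 46.6 under anti-PD1, and rose by 1.36 ± 0.22 averaged (limma, adjusted p = 0.000630). The membrane fusion gene Stx7 rose by 0.58 ± 0.11 and the calpain gene Capn3 by 1.09 ± 0.25 (adjusted p = 0.00173 and 0.0107). Under anti-PD1 alone, Stx7 (0.59 ± 0.15, adjusted p = 0.0277) was lost without shCtrl anti-PD1 tumour 2 or 4 or without shMdk anti-PD1 tumour 1 or 2, with adjusted p up to 0.105. The median of the list was 0.01 averaged over the antibodies and 0.21 for anti-PD1 averaged over the lines, where 0 passed, beside -0.02 and 0.02 over all genes. The leukocyte markers above rose with Acp5 in the same tumours, and their part in its rise was not tested.

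Of 10 genes tested that mark dedifferentiated melanoma, a state known for low pigmentation, 2 were higher in shMdk tumours under IgG2a, 4 under anti-PD1 and 4 averaged, with 0 lower. The median of the list was 0.13 under IgG2a, 1.07 under anti-PD1 and 0.55 averaged, beside -0.01, -0.02 and -0.02 over all genes. Axl, a receptor tyrosine kinase, had means of 331 ± 112 and 966 ± 336 under IgG2a and 362 ± 101 and 1340 ± 349 under anti-PD1, and rose by 1.71 ± 0.21 averaged (limma, adjusted p = 5.68e-05). Tgfbi, a matrix protein gene, rose by 2.85 ± 0.34 from means of 27.1 and 37.1 to 148 and 301 (adjusted p = 4.29e-05). Averaged over the antibodies, the tenascin gene Tnc rose by 1.50 ± 0.39 and the integrin gene Itga2 by 0.84 ± 0.20 (limma, adjusted p = 0.0211 and 0.0140). Neither passed under IgG2a alone. In shCtrl and shMdk tumours, Tnc means were 64.2 ± 6.69 and 81.7 ± 23.5 under IgG2a and 52.8 ± 44.3 and 361 ± 261 under anti-PD1. Those of Itga2 were 24.2 ± 4.52 and 31.3 ± 8.14 under IgG2a and 10.8 ± 2.10 and 29.5 ± 8.35 under anti-PD1. Tnc was lost without shMdk anti-PD1 tumour 1 (adjusted p = 0.0514), and Axl under IgG2a without shMdk IgG2a tumour 3 (adjusted p = 0.0531). Axl, Tgfbi and Tnc are also genes of macrophages or fibroblasts, whose markers were higher in shMdk tumours given anti-PD1, and the part of those cells in these values was not tested.

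Beyond the 10 genes, those whose group-centred log2 values followed the mean of the 10 standardised genes most closely over the 16 tumours were Trpm1, with r = 0.93, Cyp4v3 (0.90), Itm2b (0.87), Scn8a (0.87), Cyb5a (0.86), Itga9 (0.86), Spp1 (0.85) and Plxna1 (0.85). Trpm1, a cation channel gene of melanocytes whose locus is known as a target of Mitf, ran from 3210 to 5848 normalised counts. Its group means were 3634 ± 459, 4630 ± 1305, 4037 ± 673 and 4349 ± 850, in the order shCtrl IgG2a, shCtrl anti-PD1, shMdk IgG2a and shMdk anti-PD1. The 10 genes themselves related to their own mean with r from -0.01 for Sox10 and 0.23 for Dct to 0.81 for Slc45a2. These values rank genes by likeness and carry no test, and depth and the GC lean are shared by all genes of a tumour.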

How the data were processed

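Libraries came from 500 ng of total RNA per tumour with a stranded kit that reads poly(A) transcripts at their 3′ ends, per the labels' protocols. RNA integrity numbers are given as a mean of 8.6 and a range from 5.8 to 9.2, the same for all samples. Which tumour had which value is thus not known here. The deposited values are a normalised signal: the authors divided read counts by size factors from DESeq2, per the submitters' processing notes. These notes also name HTSeq, SAMtools 0.1.19, Bowtie 1.0.0, TopHat2 2.0.10 and FastQC 0.11.0, and the build GRCm38 (mm10). Whole reads were recovered from the deposited signal: 100% of values divided by that of 1 read gave a whole number to within 0.001.

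Log2(normalised count + 1) was fitted with limma 3.58.1 (R 4.3.3, moderated variances with a trend). All 16 tumours entered as 4 group means, which left 12 degrees of freedom, and genes averaging at least 5 normalised counts were tested. P-values were adjusted by Benjamini-Hochberg over 14672 genes within each comparison, and the threshold was 0.05. Fold changes on this scale understate those of low genes, and errors beside them are standard errors. Means have SDs over 4 tumours, which the labels describe as separate. Single values were compared by two-sided exact permutation tests, whose p-values were not adjusted for the number of genes and comparisons. Pairs of genes were compared by 100000 permutations within groups. The GC slope of a tumour is that of log2 values, centred by gene, on the GC content of the last 500 bases of the longest GENCODE M21 transcript, over 14621 genes. The procedure was tested on simulated data.

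On recovered reads, edgeR 4.0.16 (quasi-likelihood) called 251 genes for shMdk against shCtrl under IgG2a, 866 under anti-PD1 and 1232 averaged, where limma called 255, 870 and 1233. DESeq2 1.42.0 called 449, 1310 and 1694. Both were alternatives, with pseudocounts of 0.5 and 5, no filter, TMM scaling, fits of 2 groups, and fits without each tumour or without tumours with over 2% of reads from Gm42418. Fits without the 5 tumours with a positive GC slope, or with the slope as a covariate, were chosen after seeing the data. The 10 genes, the lists and the rule for named genes were chosen with earlier results of these data known. The rule took Mdk, the 10 genes, up to 4 passing genes of each list (or the 2 with the smallest p), and the 8 genes most like the mean of the 10 with at least 50 normalised counts on average. Rab38 fell under that rule, and Mc1r was added after its values were seen. Promoter sequences are from RefSeq on GRCm38.p6, and gene positions from GENCODE M21.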

Additional observations from a re-analysis of the deposited data

Results flagged for a closer look

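In 40 groups of 4 tumours (10 genes in 4 groups), 2 had a tumour set apart from the other 3 by Dixon's criterion, and chance sets apart about 1 in 20 groups, or 2 of 40. Mitf read 13696 normalised counts in shCtrl anti-PD1 tumour 1, the highest of 4, against 7751 to 8762 in the others. Sox10 read 2823 in shMdk IgG2a tumour 1, the lowest of 4, against 4936 to 5137, and Gm42418 took 3.17% of the reads of that tumour.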

How the results depend on the processing

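Of 60 results (10 genes in 6 comparisons), 0 passed in 960 fits that left out a tumour, and 4 passed in 580 fits under other settings. These 4 gave 1 passing gene each. For the averaged knockdown, Dct passed with DESeq2 (-0.37) and with the GC slope as a covariate (-0.45). For averaged anti-PD1, Oca2 passed with DESeq2 (0.89) and without the tumours with over 2% of reads from Gm42418 (1.13). The cause was not tested. Pairs of genes with an adjusted p under 0.05 numbered 8, but 0 without the 5 tumours with a positive GC slope, where fewer tumours remain, and 1 to 13 with single tumours left out. With 4 tumours a group, an interval without 0 was not enough for a call: that of Oca2 for anti-PD1 in shCtrl was 0.50 to 1.90 and it did not pass.

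Signs turned in 29 of the 580 fits, with values of at most 0.31 in size. Without the 5 tumours with a positive GC slope, anti-PD1 in shCtrl gave -0.26 for Tyr, -0.17 for Tyrp1 and -0.31 for Gpr143, anti-PD1 in shMdk gave 0.0026 for Sox10, and the knockdown gave -0.092 for Slc45a2 under IgG2a, -0.041 for Slc45a2 averaged and -0.088 for Sox10 under anti-PD1. With the GC slope as a covariate, anti-PD1 in shCtrl gave -0.0073 for Tyr and -0.14 for Gpr143, anti-PD1 in shMdk gave 0.037 for Sox10, and the knockdown gave 0.056 for Tyrp1 and -0.13 for Sox10 under anti-PD1 and 0.14 for Oca2 averaged. Without the Gm42418 tumours, anti-PD1 gave 0.17 for Mlana in shCtrl and 0.11 for Gpr143 averaged, and the knockdown under IgG2a gave 0.018 for Mitf, 0.063 for Sox10 and -0.079 for Oca2. It gave -0.053 for Sox10 and -0.043 for Slc45a2 under anti-PD1, and 0.0050 for Sox10 and -0.021 for Slc45a2 averaged. TMM scaling gave -0.00068 for Sox10 and -0.0057 for Slc45a2 for the knockdown under anti-PD1. With edgeR, Slc45a2 had -0.017 in that comparison and Mlana 0.028 for anti-PD1 in shCtrl, and with DESeq2 these were -0.0046 and 0.014, with 0.0056 for Oca2 in the averaged knockdown.

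In the fits that left out a tumour, 35 signs turned. For the knockdown, values ran from -0.17 to 0.026 (under IgG2a), -0.20 to 0.069 (under anti-PD1) and -0.14 to 0.0065 (averaged) for Mitf, from -0.23 to 0.063, -0.088 to 0.12 and -0.12 to 0.038 for Sox10, and from -0.029 to 0.14, -0.067 to 0.072 and -0.011 to 0.073 for Slc45a2. Those of Oca2 ran from -0.079 to 0.44 under IgG2a and from -0.17 to 0.083 averaged. For anti-PD1, Gpr143 ran from -0.20 to 0.25 in shCtrl, -0.26 to 0.016 in shMdk and -0.18 to 0.049 averaged, and Mlana from -0.22 to 0.17 in shCtrl and -0.050 to 0.15 averaged. No paired analysis was possible because the labels give tumours no replicate numbers, so the numbers used here pair nothing.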
